A study of Homo sapiens with 4 samples.

Results

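The genes of the cytosolic ribosomal proteins (RPs) were followed in H1299, a human line from a non-small-cell carcinoma of the lung, sequenced as poly(A) RNA. Of the 4 libraries, 2 came from cells given 0.5 mM methylparaben, a preservative and an ester of a phenolic acid, for 48 h, and 2 from control cells given ethanol. Members were all genes annotated as protein-coding whose symbol is RPL or RPS and a number, with RPLP0, RPLP1, RPLP2 and RPSA, and without the RPS6K kinases or symbols with L1 after the number. The rule took 88 of 58735 genes: 79 core RP genes (46 of the large and 33 of the small subunit), 5 paralogues with the suffix L, 3 readthrough genes and RPS19BP1, which is not a ribosomal subunit. The core genes have 796 annotated transcripts. No RP gene was targeted in the design, and every RP value below is a comparison of methylparaben with ethanol cells.

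Library totals were 3760982 and 2068486 counts in methylparaben replicates 1 and 2 and 2368658 and 2182058 in ethanol replicates 1 and 2. Levels are given in CPM, counts relative to the size of a library, after TMM scaling, which sets libraries to a trimmed mean of their ratios. A count of 0 allows up to 0.816 and 1.57 CPM in methylparaben 1 and 2 and up to 1.28 and 1.30 CPM in ethanol 1 and 2, taking 3 counts as the limit, for counting error only. Nothing in the labels states separate cultures for the replicates, so p-values measure the spread between these libraries, and that spread may be technical. Fewer cells of a kind and less RNA per cell cannot be told apart in bulk RNA. The 6 lung and 5 blood and immune markers examined were at 0 in all 4 libraries. Of the epithelial markers, EPCAM and CDH1 were at 0, and KRT8 had 8.43 and 11.5 CPM with methylparaben and 10.2 and 6.06 CPM with ethanol and KRT18 7.35 and 3.14 CPM with methylparaben and 6.80 and 2.16 CPM with ethanol, neither of which passed the test used below. Of the mesenchymal markers, CDH2 had a total of 1 count, in ethanol replicate 2. VIM and AXL were present and lower with methylparaben. Their log2 fold changes were -1.19 ± 0.25 (SE) and -1.41 ± 0.20 (adjusted p = 0.00565 for VIM and 0.000733 for AXL). Their part in the results below was not tested.

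Each cytosolic ribosome joins a small subunit, which decodes the mRNA, to a large subunit, which forms the peptide bond, and each RP is needed at about equal numbers. RP mRNAs are among the most abundant of a growing cell, and most begin with a 5′ terminal oligopyrimidine (TOP) tract, a run of C and T (U in RNA) at the cap through which mTORC1 and LARP1 control their translation. Several RPs are known to act on the splicing of their own transcripts, so that introns are kept or extra exons are added and the RNA is not translated or is degraded.

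The start sites of genes with changed counts are shown because the TOP tract is the sequence feature that RP genes are known to share. Of the 79 core genes, 64 had an entry in the RefSeq promoter table (GRCh38.p14). The window ran over 30 bases, 15 before the annotated start and 15 from it on, read on the coding strand only. Capitals mark the longest unbroken run of C and T.
RPS3, chr11:75399503-75399532, plus strand: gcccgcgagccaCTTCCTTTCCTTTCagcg
RPS16, chr19:39435935-39435964, minus strand: gtggcccctagCTTTCCTTTTCCggttgcg
RPS12, chr6:132814554-132814583, plus strand: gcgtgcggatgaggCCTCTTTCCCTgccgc
RPL3, chr22:39319609-39319638, minus strand: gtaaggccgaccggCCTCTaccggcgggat
RPL14, chr3:40457324-40457353, plus strand: gggcgggTCTTCTTCCTTCTCgcctaacgc
RPL22, chr1:6199581-6199610, minus strand: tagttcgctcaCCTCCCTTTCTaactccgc
RPS23, chr5:82278340-82278369, minus strand: tcctgcggtgCTTCTCTCTTTCgctcaggc
RPL4, chr15:66504841-66504870, minus strand: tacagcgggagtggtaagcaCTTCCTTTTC
Of the 64 matched core genes 48 (75%) had a run of 8 or more C or T, against 13.7% of all 35116 entries of the table, and the median longest run was 11 bases against 4. The first 4 genes above had higher counts with methylparaben and the last 4 had lower counts, and runs of 8 or more stood in both sets. Among matched genes they were found in 4 of 10 that were higher (RPS3, RPS16, RPS12 and RPLP1), in 5 of 5 that were lower and in 26 of 32 tested without a call. Annotated starts can lie some bases away from the start used in these cells, so a shorter run in the window says only that these letters are not in it.

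The deposited counts covered an unusual part of these genes. None of the 70749 transcripts that share every base with another had a read. Reads thus appear to have been counted only where a base is part of 1 annotated transcript and no other, though the counting method is not stated. For core RP genes such bases were 161594 of 713247 exonic bases, or 22.7%. Hardly any lay in coding exons: 802 bases did, against 81092 in introns of the main coding transcript, 61284 3′ of its stop codon and 18416 5′ of its start codon. If reads were counted in that way, RP levels are those of untranslated ends and introns. Of the 79 core genes, 7 had no count in any library (RPL10A, RPL13A, RPL36, RPS2, RPS25, RPS4Y1 and RPS4Y2), and RPL13A has no countable base. A further 17 had too few counts to be tested, and 55 were tested. RPL22 alone held 27.4% of all core RP counts.

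Summed over all core genes, RP reads made 3068 and 3024 CPM in methylparaben cells, against 3001 and 3054 CPM in ethanol cells. The ranges overlapped, with a ratio of 1.01 (exact two-sided permutation p = 0.667). Without TMM scaling these were 0.300% and 0.279% of all counts with methylparaben and 0.298% and 0.323% with ethanol. The sum hid opposite shifts of its classes, which the annotation names by the kind of transcript. Protein-coding transcripts summed to 1936 and 1896 CPM with methylparaben and 2274 and 2300 CPM with ethanol, a ratio of 0.838. Retained-intron transcripts, which keep an intron and are not annotated as translated, summed to 1019 and 999 CPM with methylparaben and 662 and 682 CPM with ethanol, a ratio of 1.5. In both classes the libraries of the groups did not overlap, and the exact permutation p of each was 0.333, the smallest that 2 against 2 libraries can give.

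Retained-intron transcripts made 33.2% and 33.0% of core RP reads with methylparaben and 22% and 22.3% with ethanol. The smaller classes also summed higher with methylparaben. Processed transcripts, which have no annotated reading frame, had 84.9 and 97.9 CPM with methylparaben against 51.9 and 58.9 CPM with ethanol, and transcripts annotated for nonsense-mediated decay (NMD) had 28.6 and 30.9 CPM with methylparaben against 13.2 and 13 CPM with ethanol. Placed by position, intron bases had 1280 and 1246 CPM with methylparaben and 817 and 869 CPM with ethanol, and bases 3′ of the stop codon had 1680 and 1656 CPM with methylparaben and 2082 and 2095 CPM with ethanol. The lower protein-coding sum depended on RPL22: without it, the log2 ratio of the class was 0.064 instead of -0.26. The class was then led by a higher gene, RPL37, at a mean of 421 CPM with methylparaben and 198 CPM with ethanol. Falls were not confined to RPL22. Of 34 tested protein-coding RP transcripts, 10 were lower and 5 higher (29.4% and 14.7%, against 25.4% and 14.7% of all in the class), with a median log2 fold change of -0.55. The higher retained-intron sum did not rest on its most counted gene, RPL36A, without which its log2 ratio was 0.66 instead of 0.59. Retained-intron reads were also a larger share elsewhere, at 5.88% and 5.82% of the reads of other protein-coding genes with methylparaben and 3.44% and 3.34% with ethanol.

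**Figure D1:**
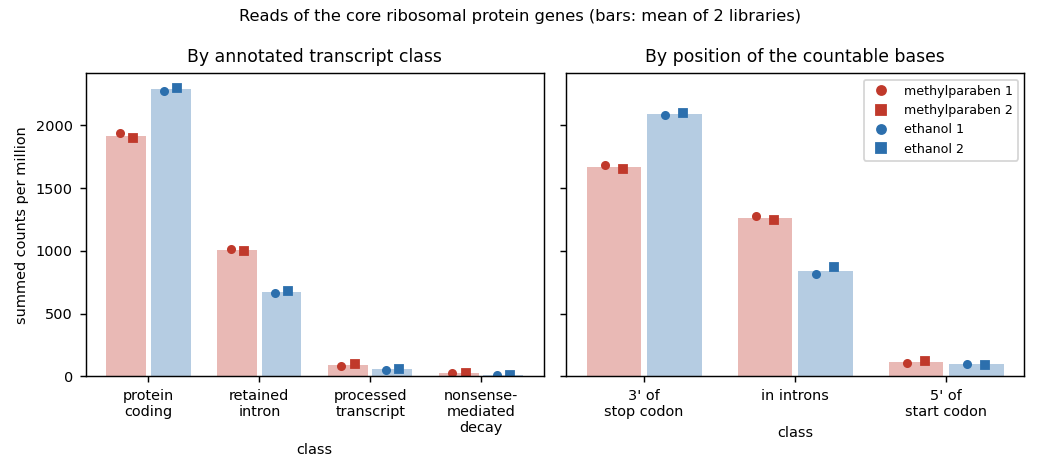
Summed TMM-scaled CPM of core RP transcripts by annotated class (left) and by position of the countable bases (right), as bars for the mean and points for each library of methylparaben (red) and ethanol (blue). Retained-intron reads averaged 1009 CPM with methylparaben and 672 CPM with ethanol, and protein-coding reads 1916 CPM with methylparaben and 2287 CPM with ethanol.

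Among the 55 tested core genes, 12 were higher and 5 were lower with methylparaben by edgeR's quasi-likelihood test with Benjamini-Hochberg adjustment over all 8055 genes tested, and 38 did not pass. That is 30.9% called (21.8% higher and 9.09% lower), against 36.9% of all genes tested (18.5% higher and 18.4% lower). The groups did not overlap in 35 core genes (63.6%), against 70.5% of all genes. The share of RP genes called was thus not above that of genes in general. The median log2 fold change of the core genes was 0.34, with 37 above 0, and that of all tested genes was 0.03. Large-subunit genes had 8 higher and 4 lower of 33 tested with a median of 0.10, and small-subunit genes had 4 higher and 1 lower of 22 with a median of 0.52. Counts depended on the library left out, with 7 higher and 2 lower without ethanol replicate 1 and 10 higher and 3 lower without ethanol replicate 2.

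**Figure D2:**
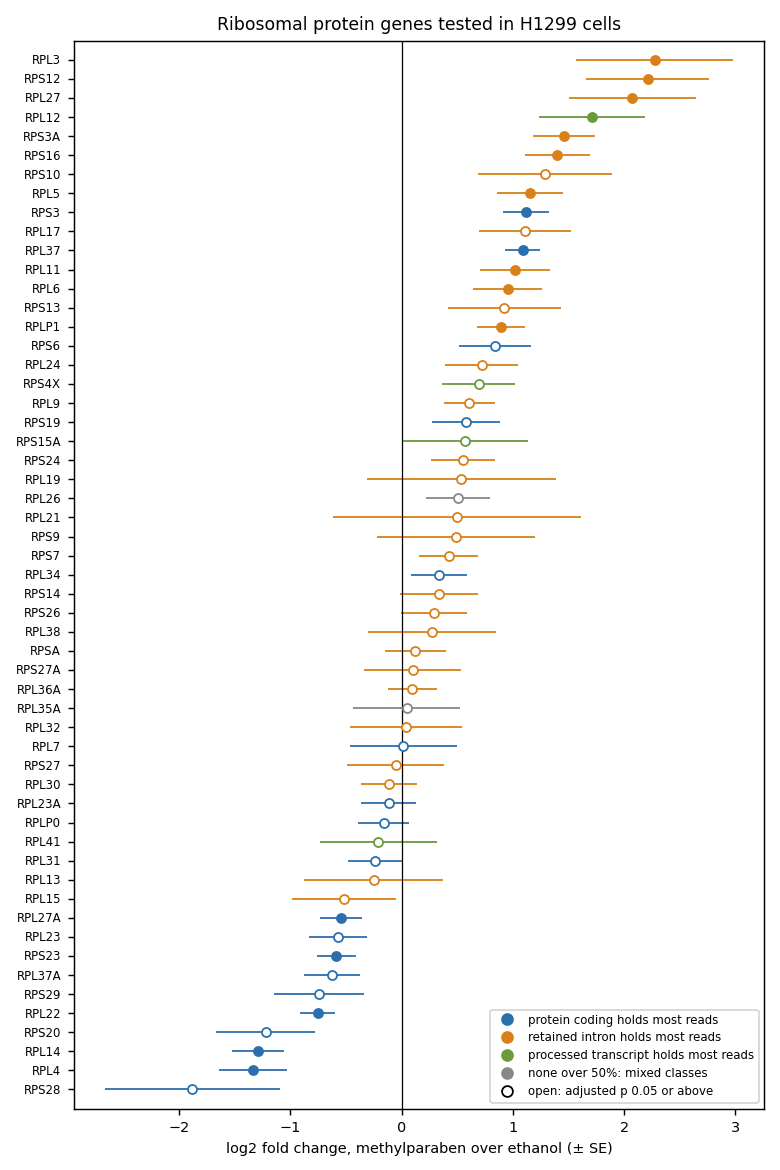
Log2 fold change of methylparaben over ethanol with its standard error for the 55 tested core RP genes, coloured by the transcript class that holds over 50% of a gene's reads, with filled points for genes at an adjusted p under 0.05. The 5 filled points left of 0 are all protein-coding, and 9 of the 12 filled points right of 0 are retained-intron.

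The direction went with the class of transcript on which a gene was read. Of the 12 higher genes, 9 had most reads on retained-intron transcripts, 2 on protein-coding transcripts (RPS3 and RPL37) and 1 on a processed transcript (RPL12). All 5 lower genes had most reads on protein-coding transcripts. Over all tested core genes the median log2 fold change was 0.54 for the 30 read mainly on retained-intron transcripts and -0.54 for the 19 read mainly on protein-coding ones. Counted on protein-coding transcripts only, 29 core genes could be tested, of which 5 were higher and 5 lower, and their median was -0.10. With retained-intron transcripts left out, 4 of 33 were higher and 5 were lower. Most of the higher genes were thus read mainly on retained-intron transcripts. Their counts were not mostly of that class, since RPL37, with 3267 counts the most of them, was read almost only on a protein-coding transcript.

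Some genes for the peptidyl transferase centre and the stalk of the large subunit were higher, but not all genes of its functional parts. RPLP0, also of the stalk, was not called, at a log2 fold change of -0.16, and RPL4, of the exit tunnel, was lower, at -1.34. RPL3, which shapes the peptidyl transferase centre, had 20 and 19 counts with methylparaben and 2 and 5 counts with ethanol. Its levels were 5.44 and 9.94 CPM with methylparaben and 0.851 and 2.16 CPM with ethanol, and its log2 fold change was 2.27 ± 0.70 (SE) with an adjusted p of 0.0296 by edgeR's quasi-likelihood test, as for the adjusted p-values of genes that follow. These were retained-intron reads for 95.7% of the gene, at a depth of a few reads per library, and its adjusted p was 0.217 and 0.0547 without ethanol replicates 1 and 2 and 0.252 without methylparaben replicate 2. RPL12, at the base of the stalk that recruits elongation factors, had 18.8 and 20.9 CPM with methylparaben, against 8.51 and 3.46 CPM with ethanol. Its log2 fold change was 1.71 ± 0.48 (adjusted p = 0.0192, and 0.101 without ethanol replicate 2). All of its reads lay on processed transcripts. RPLP1, one of the acidic proteins of that stalk, had 113 and 102 CPM with methylparaben and 61.7 and 54.1 CPM with ethanol, a log2 fold change of 0.89 ± 0.21 (adjusted p = 0.00988, and 0.0723 without ethanol replicate 2). Both groups were tight, and 95.9% of its reads were on retained-intron transcripts.

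RPL5 and RPL11 bind 5S rRNA together and, outside the ribosome, are known to bind MDM2. RPL5 had 55.0 and 44.0 CPM with methylparaben and 18.7 and 26 CPM with ethanol, and its log2 fold change was 1.15 ± 0.30 (adjusted p = 0.0137, and 0.107 without ethanol replicate 1). RPL11 had 44.1 and 58.1 CPM with methylparaben and 30.6 and 19.5 CPM with ethanol, at 1.02 ± 0.31 (adjusted p = 0.0289, and 0.167 without ethanol replicate 2). Both genes were higher without overlap, read for 76.7% (RPL5) and 87.4% (RPL11) on retained-intron transcripts, and the call of each depended on an ethanol library. RPL27, a large-subunit protein, had 9.80 and 10.5 CPM with methylparaben and 1.70 and 3.03 CPM with ethanol. Its log2 fold change was 2.07 ± 0.57 (adjusted p = 0.0177, 0.127 without ethanol replicate 1 and 0.0636 without methylparaben replicate 1), and all of its reads were on retained-intron transcripts. RPL6, also of the large subunit, had 66.7 and 46.6 CPM with methylparaben and 23.4 and 35.5 CPM with ethanol, at 0.95 ± 0.31 (adjusted p = 0.0346, 0.233 without ethanol replicate 1 and 0.132 without methylparaben replicate 1).

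RPL37, a small zinc-binding protein of the large subunit, was the higher gene with the most counts. It had 414 and 429 CPM with methylparaben and 200.3 and 196.5 CPM with ethanol, and the groups were far apart for the spread within them. Its log2 fold change was 1.09 ± 0.16 (adjusted p = 0.000975). Nearly all reads lay on RPL37-201, the main protein-coding transcript, with 6643 countable bases of which 6520 lie 3′ of the stop codon. RPL37 rose on bases 3′ of its stop codon, then, where most other RP transcripts read there fell or did not pass.

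In the small subunit, RPS3, at the mRNA entry site, had 115 and 111 CPM with methylparaben and 52.7 and 51.9 CPM with ethanol. Its log2 fold change was 1.12 ± 0.21 (adjusted p = 0.00319), and the spread within each group was small beside it. The gene had 424 and 213 counts with methylparaben and 124 and 120 with ethanol. Of these, a protein-coding transcript described below held 252 and 118 with methylparaben and 15 and 17 with ethanol. No other tested RPS3 transcript was called higher, so the rise of the gene rested largely on that transcript. RPS16, whose tail contacts the peptidyl tRNA, had 72.9 and 112 CPM with methylparaben and 29.3 and 40.3 CPM with ethanol, at 1.40 ± 0.29 (adjusted p = 0.00505), with all reads on retained-intron transcripts. RPS3A, of the platform side of the subunit, had 67.2 and 51.3 CPM with methylparaben and 23.0 and 20.3 CPM with ethanol, at 1.46 ± 0.28 (adjusted p = 0.00359), with 97.1% of its reads on such transcripts. These genes kept their calls whichever library was left out. RPS12, another small-subunit protein, had 9.80 and 10.5 CPM with methylparaben and 2.13 and 2.16 CPM with ethanol, at 2.21 ± 0.56 (adjusted p = 0.0122). Its 66 reads all lay on retained-intron bases, and its adjusted p was 0.0750 without ethanol replicate 1 and 0.0531 without methylparaben replicate 1.

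The 5 lower genes were read mainly 3′ of their stop codons. RPL22, a large-subunit protein known to be dispensable for viability in mice, had 653 and 611 CPM with methylparaben and 1074 and 1059 CPM with ethanol. Its log2 fold change was -0.75 ± 0.16 (adjusted p = 0.00544), with groups wide apart and a call that held without any 1 library. RPL14, also of the large subunit, had 41.9 and 38.2 CPM with methylparaben and 87.6 and 109 CPM with ethanol, at -1.29 ± 0.24 (adjusted p = 0.00280). Its call too held without any 1 library. RPL4, whose extension lines the exit tunnel, had 16.1 and 15.2 CPM with methylparaben and 44.2 and 35.1 CPM with ethanol, at -1.34 ± 0.31 (adjusted p = 0.00816, and 0.0601 without ethanol replicate 1).

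RPS23, at the decoding centre of the small subunit, had 136 and 133 CPM with methylparaben and 193 and 212 CPM with ethanol. The groups did not overlap, with a log2 fold change of -0.59 ± 0.17 (adjusted p = 0.0248), and the adjusted p was between 0.0367 and 0.201 without 1 library. RPL27A had 101 and 95.8 CPM with methylparaben and 151 and 137 CPM with ethanol, at -0.54 ± 0.19 (adjusted p = 0.0444). Its call was lost without any 1 of the 4 libraries, at adjusted p-values of 0.0600 to 0.224. RPL27A is thus the least firm of the 5.

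**Figure D3:**
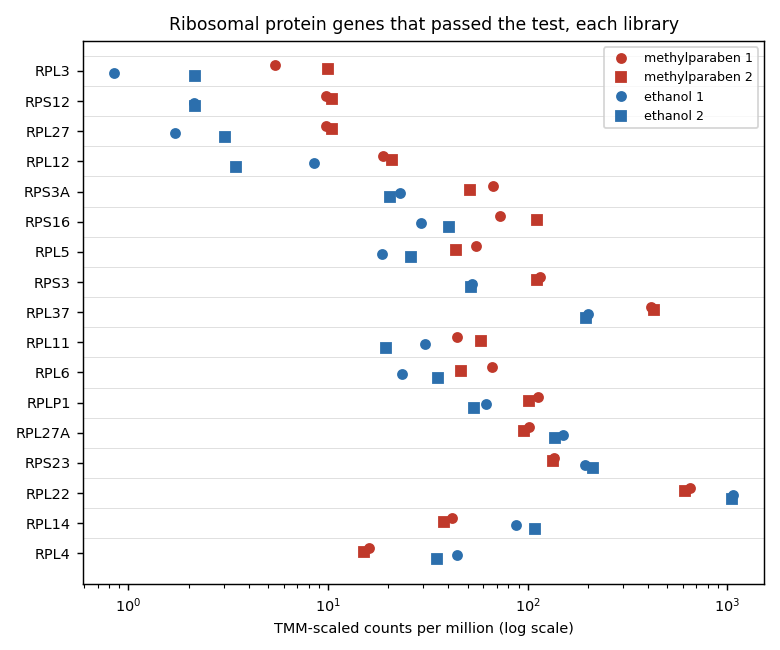
TMM-scaled CPM on a log axis of the 17 core RP genes that passed the test, with a point for each methylparaben (red) and ethanol (blue) library, ordered by fold change. Points of the groups do not overlap in any of the genes, and RPL22 (632 CPM with methylparaben and 1067 CPM with ethanol on average) and RPL37 (421 CPM with methylparaben and 198 CPM with ethanol) lie highest.

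Per kilobase of countable bases, RPL22 was highest of the core genes in both groups, at 182 CPM per kilobase with methylparaben and 307 with ethanol, and the paralogue RPL36AL stood above it at 693 with methylparaben and 462 with ethanol. RPS16 had 71.6 and RPS23 62.0 CPM per kilobase with methylparaben, against 27.0 for RPS16 and 93.2 for RPS23 with ethanol. RPL37 had 59.9 and RPS3A 49.9 CPM per kilobase with methylparaben, against 28.2 for RPL37 and 18.2 for RPS3A with ethanol. With ethanol, RPL36A (32.7) and RPLP0 (29.2) also stood above RPL37, so the order below RPL22 differed between the groups.

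Of the 38 tested genes without a call, several had fold changes as large as those called, with wider errors. RPS28, a small protein at the mRNA exit site, had 2 and 7 counts with methylparaben and 17 and 14 with ethanol, at -1.88 ± 0.78 (adjusted p = 0.0859). RPS20, of the small-subunit head, had 38 and 9 counts with methylparaben and 42 and 44 with ethanol, at -1.22 ± 0.45 (adjusted p = 0.0556). RPL17, at the exit of the tunnel, had 92 and 27 counts with methylparaben and 22 and 21 with ethanol, at 1.11 ± 0.42 (adjusted p = 0.0606). RPS6, the substrate of the S6 kinases, had 158 and 81 counts with methylparaben and 41 and 70 with ethanol, at 0.84 ± 0.32 (adjusted p = 0.0659). These libraries did not settle a direction for these genes. Among the 17 genes with too few counts to test, RPL8 had 16 and 11 counts with methylparaben and 2 and 1 with ethanol. Apart from RPS6, these genes were chosen after their values were seen.

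At the level of transcripts, 214 of the 796 core RP transcripts had reads and 86 of 51 genes were tested. Of these, 19 were higher and 10 lower with methylparaben by edgeR's quasi-likelihood test with Benjamini-Hochberg adjustment over 9167 transcripts, which is 33.7% called against 39.4% of all transcripts tested (20.3% higher and 19.1% lower). Without ethanol replicate 1 the counts were 10 higher and 4 lower, and without ethanol replicate 2 they were 13 and 4. The median log2 fold change was 0.35, against 0.05 for all transcripts. Setting the transcripts at 0 in ethanol to the bound that 3 counts allow could not move this median. Their bounds, 17.0-fold for RPL37A-205 and 10.3-fold for RPL5-204, still lie above it.

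By class, 11 of 42 tested retained-intron transcripts of RP genes were higher and 0 lower. That is 26.2% higher, against 39.7% higher and 6.02% lower of all 1545 tested retained-intron transcripts. The median log2 fold change was 0.50 for RP transcripts and 1.02 for all of the class. Of 34 protein-coding RP transcripts 5 were higher (14.7%) and 10 lower (29.4%), against 14.7% higher and 25.4% lower of all 4662, with medians of -0.55 and -0.18. The called RP retained-intron transcripts were thus all higher, and 31 of the 42 did not pass; whether the shares differ from those of the class was not tested. Of 8 processed transcripts 2 were higher, RPL12-203 and RPL37A-213, against 24% higher and 15.2% lower of the class. Of 2 tested NMD transcripts, RPL5-204 was higher, against 30.3% higher and 14.9% lower of that class.

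By position, 14 of 58 tested RP transcripts with their countable bases mostly in introns were higher and 0 were lower, where 20.3% and 19.1% of all tested transcripts were. Of the 58, 40 were retained-intron transcripts, and 11 of these were higher. Over all tested retained-intron transcripts, 39.7% were higher and 6.02% lower, which is the nearer background. Shares by position were not computed for other genes. Among the 24 read 3′ of the stop codon, 5 were higher (RPL37-201, RPS3-209, RPS24-204, RPL37A-205 and RPL37A-213) and 9 were lower. Of 4 read 5′ of the start codon 1 was lower, RPL35A-206. The main coding transcript had reads in 22 core genes, and these held 53.2% of core RP counts.

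**Figure D4:**
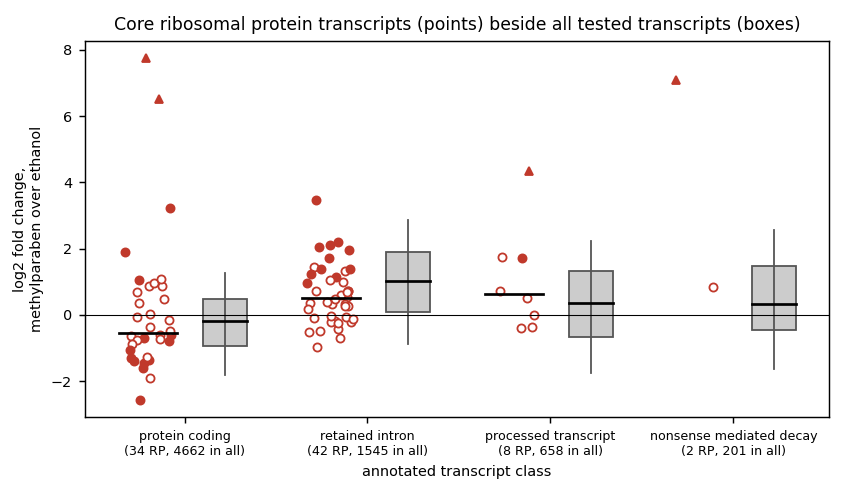
Log2 fold change of the tested core RP transcripts (points, filled where the adjusted p was under 0.05) beside all tested transcripts of the same class (boxes from the lower to the upper quartile, whiskers at the 10th and 90th percentiles), with black lines at medians where more than 4 points are drawn. Retained-intron transcripts had a median of 0.50 for RP genes and 1.02 in all, and triangles mark the 4 RP transcripts with 0 or 1 count in ethanol, whose fitted values are no measure of size.

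Whether the transcripts of a gene moved unequally could be tested in 21 core genes with edgeR's test of transcript usage. It called 7 of them (33.3%), against 41.6% of the 1172 genes tested: RPL37A, RPS3, RPS24, RPL9, RPL5, RPL31 and RPL35A, with Benjamini-Hochberg adjusted p-values of 1.52e-08 for RPL37A to 0.00166 for RPL35A. In 5 of them, RPL37A, RPS24, RPL9, RPL31 and RPL35A, the summed gene count did not pass the test. In these, changed transcripts stood beside a gene total without a call.

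RPS3 showed it within its protein-coding transcripts. RPS3-209 (chr11:75399531-75422280) had 252 and 118 counts with methylparaben and 15 and 17 with ethanol, or 68.6 and 61.8 CPM with methylparaben and 6.38 and 7.36 CPM with ethanol. Its log2 fold change was 3.22 ± 0.31, 9.29-fold, with an adjusted p of 9.71e-05 by edgeR's quasi-likelihood test over all transcripts, as for the other transcripts here. Its 554 countable bases lie 3′ of the stop codon of the main transcript, in an annotated form that runs further downstream. RPS3-217 (chr11:75399486-75406913), with 1058 countable bases, had 12.8 and 14.7 CPM with methylparaben and 30.6 and 25.5 CPM with ethanol, at -1.06 ± 0.34 (adjusted p = 0.0307, and 0.0759 to 0.146 without methylparaben replicate 1 or either ethanol replicate). Both transcripts had groups that did not overlap, in opposite directions, and the call of RPS3-209 held without any 1 library. RPS3-214 had 22.9 and 25.6 CPM with methylparaben and 11.5 and 14.3 CPM with ethanol (adjusted p = 0.0719).

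In RPS24, a small-subunit gene known for alternative splicing of its last exons, the protein-coding RPS24-204 (chr10:78033863-78056813) had 52 and 69 counts with methylparaben and 1 and 0 with ethanol. That is 14.1 and 36.1 CPM with methylparaben and 0.425 and 0 CPM with ethanol. The ratio of levels was 101, with an exact 95% interval of 17.8 to 4021 for counting error, and the adjusted p was 0.000704. Its 2137 countable bases lie 3′ of the main stop codon. The retained-intron RPS24-211 was not called, with 9.25 and 7.33 CPM with methylparaben and 14.5 and 18.2 CPM with ethanol (log2 fold change -0.98 ± 0.42, adjusted p = 0.0868).

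RPL37A, a zinc-binding large-subunit protein, had 2 transcripts seen almost only with methylparaben and 1 that was lower. RPL37A-205 (chr2:216498855-216579180, protein-coding, 260 countable bases) had 44 and 17 counts with methylparaben and 0 and 0 with ethanol, at least 17.0-fold higher taking 3 counts over the ethanol group as the limit (adjusted p = 0.00127). RPL37A-213 (chr2:216529025-216529583, a processed transcript) had 20 and 10 counts with methylparaben and 0 and 1 with ethanol, a ratio of 25 with an interval of 4.16 to 1021 for counting error (adjusted p = 0.00657, and 0.0514 to 0.124 without methylparaben replicate 2 or either ethanol replicate). The countable bases of both lie 3′ of the main transcript's stop codon. The main transcript RPL37A-210 (chr2:216498189-216504086) had 36.7 and 25.6 CPM with methylparaben and 68.9 and 84.8 CPM with ethanol, at -1.31 ± 0.27 (adjusted p = 0.00472), and the groups did not overlap.

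RPL9, near the stalk base of the large subunit, and RPL31, near the tunnel exit, each had an intron-read transcript that was higher and a transcript read 3′ of the stop codon that was lower. RPL9-213 (chr4:39454171-39457125, retained intron) had 25.3 and 29.8 CPM with methylparaben and 7.65 and 4.76 CPM with ethanol, at 2.11 ± 0.41 (adjusted p = 0.00335). RPL9-214 (chr4:39452521-39458949, protein-coding) had 10.9 and 7.33 CPM with methylparaben and 22.1 and 26 CPM with ethanol, at -1.39 ± 0.38 (adjusted p = 0.0173, and 0.0508 and 0.0912 without ethanol replicate 1 and 2). The groups did not overlap in either. In RPL31, RPL31-207 (chr2:101002691-101006367) had 19.9 and 20.9 CPM with methylparaben and 5.10 and 5.63 CPM with ethanol, at 1.89 ± 0.42 (adjusted p = 0.00638). It is annotated as protein-coding, but its 1354 countable bases lie in introns of the main transcript. RPL31-201 (chr2:101001715-101007267), the main transcript, had 6.26 and 14.1 CPM with methylparaben and 25.5 and 26.8 CPM with ethanol, at -1.45 ± 0.44 (adjusted p = 0.0245, and 0.0865 to 0.115 without methylparaben replicate 1 or either ethanol replicate).

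RPL5, of the 5S particle, had an NMD transcript, RPL5-204 (chr1:92832064-92836354), with 24 and 13 counts with methylparaben and 0 and 0 with ethanol, at least 10.3-fold higher (adjusted p = 0.00262). Its retained-intron RPL5-203 had 61 and 15 counts with methylparaben and 0 and 5 with ethanol, at 3.46 ± 0.87 (adjusted p = 0.0112, and 0.0604 without ethanol replicate 1 and 0.117 without methylparaben replicate 1). Both were higher, while the processed transcript RPL5-206 had 4.90 and 4.19 CPM with methylparaben and 5.53 and 6.49 CPM with ethanol and was not called. RPL35A-206, a protein-coding form of the large-subunit gene RPL35A read 5′ of the start codon, had 6 and 0 counts with methylparaben and 12 and 17 with ethanol, and its call (adjusted p = 0.0300) was lost without ethanol replicate 1 or 2 or methylparaben replicate 2, at 0.170 to 0.307.

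**Figure D5:**
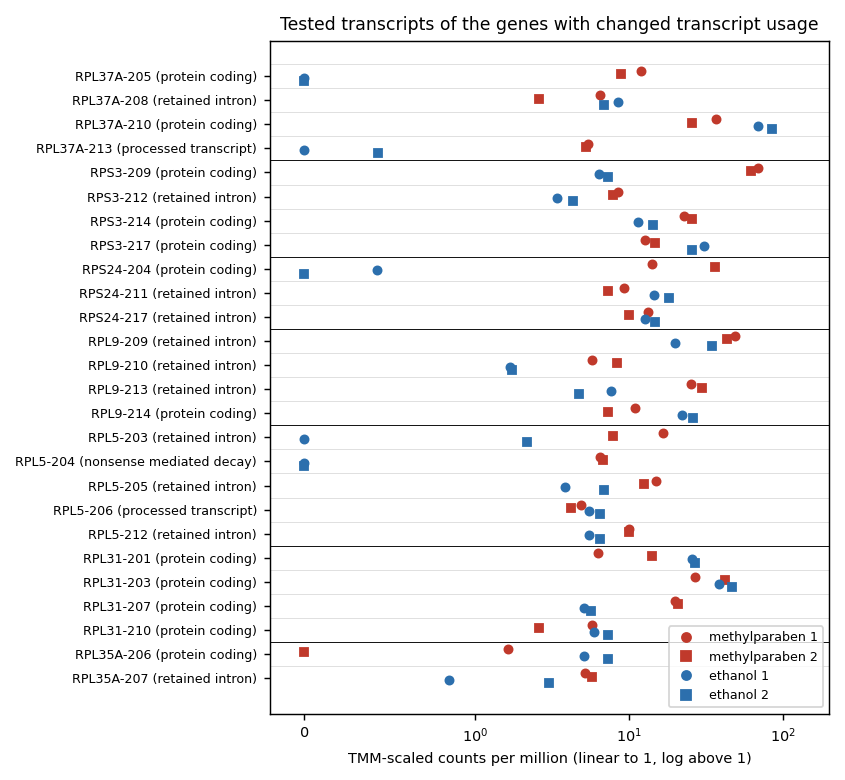
TMM-scaled CPM, on an axis linear to 1 and logarithmic above, of the tested transcripts of the 7 core RP genes with changed transcript usage, with a point for each methylparaben (red) and ethanol (blue) library. RPS3-209, RPS24-204 and RPL37A-205 lie to the right with methylparaben (at 8.90 CPM or more), while RPL37A-210, RPS3-217, RPL9-214 and RPL31-201 lie to the right with ethanol.

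Other genes with reads on more than 1 class of transcript had no called change of usage. RPL34, of the large subunit, had 50.6 and 34 CPM on protein-coding transcripts with methylparaben and 45.1 and 37.2 CPM with ethanol, and 22.9 and 26.2 CPM on retained-intron transcripts with methylparaben against 15.3 and 8.66 CPM with ethanol. RPS14, of the small-subunit platform, had 5.44 and 7.33 CPM on protein-coding transcripts with methylparaben and 11.5 and 9.09 CPM with ethanol, and 17.4 and 33.0 CPM on retained-intron transcripts with methylparaben against 17.4 and 15.1 CPM with ethanol. RPL36A had 89.5 and 72.7 CPM on retained-intron transcripts with methylparaben and 92.7 and 74.9 CPM with ethanol, which overlap. The stalk protein gene RPLP0, with 49.8 and 46.1 CPM on protein-coding transcripts with methylparaben and 47.2 and 52.4 CPM with ethanol, overlapped as well. RPL26, RPL30, RPL6, RPL22, RPS4X and RPS6 were the remaining ones, with adjusted p-values of 0.261 to 0.825 for usage. In RPL22, protein-coding reads were lower (635 and 586 CPM with methylparaben, 1049 and 1028 CPM with ethanol), and the 18 and 25.6 CPM of its retained-intron reads with methylparaben overlapped the 25.5 and 31.2 CPM with ethanol.

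Paralogues and readthrough genes were mostly not counted. RPL36AL, which encodes a near copy of the RPL36A protein, was the second most counted RP gene, with 427 and 608 CPM with methylparaben and 406 and 283 CPM with ethanol. The groups did not overlap, but the log2 fold change of 0.58 ± 0.23 did not pass (adjusted p = 0.0683 by edgeR's quasi-likelihood test). RPS27L, a paralogue of RPS27, had 11.4 and 13.6 CPM with methylparaben and 14 and 16.9 CPM with ethanol, at -0.32 ± 0.38 (adjusted p = 0.547). Its main protein-coding transcript RPS27L-201 was lower, with 11 and 7 counts with methylparaben and 31 and 22 with ethanol, at -1.81 ± 0.53 (adjusted p = 0.0224, and 0.0530 to 0.148 without methylparaben replicate 1 or either ethanol replicate). RPL3L, with 4 and 3 counts with methylparaben and 1 and 0 with ethanol, and RPS19BP1 were not tested, and RPL10L, RPL39L and the 3 readthrough genes had no counts.

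Of ribosomal components under other names, RACK1, a scaffold on the small subunit, was higher, with 53.9 and 72.2 CPM with methylparaben and 28.9 and 30.3 CPM with ethanol (log2 fold change 1.08 ± 0.27, adjusted p = 0.0114). FAU, a fusion of RPS30 with a ubiquitin-like protein, was at 0 in all 4 libraries. Of the paralogues with L1 in their symbol, only RPL7L1 could be tested (adjusted p = 0.0541). It did not pass.

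Further mRNAs known to carry a TOP tract, of elongation factors and other translation proteins, moved both ways. Of 17 tested, 4 were higher and 5 lower (23.5% and 29.4%, against 18.5% and 18.4% of all genes), with a median log2 fold change of 0.49 against 0.03. EIF3H, an initiation factor subunit, had 47.1 and 41.9 CPM with methylparaben and 116 and 123 CPM with ethanol, at -1.42 ± 0.22 (adjusted p = 0.00112). NPM1, a nucleolar chaperone, had 162 and 133 CPM with methylparaben and 265 and 335 CPM with ethanol, at -1.02 ± 0.19 (adjusted p = 0.00323). EEF2, which moves the ribosome along the mRNA, had 60.9 and 228 CPM with methylparaben and 21.7 and 34.2 CPM with ethanol, at 2.35 ± 0.52 (adjusted p = 0.00724). EEF2 was higher without overlap but differed widely between its methylparaben libraries. EIF3F, another initiation factor subunit, was lower, at -1.24 ± 0.28 (adjusted p = 0.00788).

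Of 13 tested genes of mTORC1 and TOP mRNA control, 3 were higher and 1 lower (23.1% and 7.69%, against 18.5% and 18.4% of all genes). DDIT4, an inhibitor of mTORC1, had 76.2 and 50.8 CPM with methylparaben and 6.80 and 18.2 CPM with ethanol, at 2.35 ± 0.42 (adjusted p = 0.00258). MTOR, the kinase itself, had 42.2 and 129 CPM with methylparaben and 34 and 22.5 CPM with ethanol, at 1.58 ± 0.46 (adjusted p = 0.0244), PDCD4, an inhibitor of translation initiation, was at 1.21 ± 0.43 (adjusted p = 0.0479), and SESN3, which restrains mTORC1, was at -0.95 ± 0.33 (adjusted p = 0.0436). MTOR and its inhibitor DDIT4 were thus both higher, though MTOR differed widely between its methylparaben libraries. Of 3 tested S6 kinase genes, 33.3% were higher and 0% lower, against 18.5% and 18.4% of all genes. RPS6KB1, encoding the main kinase of RPS6, was higher, with 18 and 17.8 CPM with methylparaben and 2.55 and 2.60 CPM with ethanol (2.77 ± 0.48, adjusted p = 0.00218).

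Among 11 tested chaperones and importers of RPs, 2 were higher and 2 lower (18.2% each, against 18.5% and 18.4% of all genes), so the list was called about as often as genes in general. HEATR3, which brings RPL5 and RPL11 into the nucleus, had 39.2 and 34.5 CPM with methylparaben and 94.8 and 100 CPM with ethanol, at -1.40 ± 0.23 (adjusted p = 0.00161). TSR2, which escorts RPS26, had 50.9 and 86.9 CPM with methylparaben and 29.3 and 26.8 CPM with ethanol, at 1.28 ± 0.31 (adjusted p = 0.0101). The importin genes parted, with IPO7 at 0.81 ± 0.18 (adjusted p = 0.00643) and IPO5 at -0.72 ± 0.17 (adjusted p = 0.00926). Of 6 tested genes of RP modification and quality control, 16.7% were higher and 0% lower, against 18.5% and 18.4% of all genes. HUWE1, a ubiquitin ligase that acts on unassembled RPs, was higher at 1.19 ± 0.32 (adjusted p = 0.0155).

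RP genes have many processed pseudogenes, copies of their mRNAs in the genome, which hold the exon sequence that the counted bases of the parent genes lack. The 1132 pseudogenes named after core genes summed to 47855 and 61121 CPM with methylparaben and 41268 and 37564 CPM with ethanol, far above the sums of the core genes in every library. Reads of a parent mRNA and of its pseudogene cannot be told apart here. Of 134 tested, 43 were higher (32.1%) and 4 were lower (2.99%), against 18.5% and 18.4% of all genes, with a median log2 fold change of 0.49 against 0.03. The 4 lower ones, RPL23AP7, RPL23AP82, RPL23AP87 and RPSAP52, are annotated over longer stretches than an mRNA copy takes up. An example is RPSAP52, at chr12:65758020-65826997. Several of the higher ones stood high mainly in methylparaben replicate 2. RPL13P12 had 5.99 and 130 CPM with methylparaben and 3.83 and 3.03 CPM with ethanol. Others did not, such as RPL17P34, with 23.7 and 18.8 CPM with methylparaben and 7.23 and 6.06 CPM with ethanol. How many calls rest on that library is not given here. RPL7P9, with 9889 and 9022 CPM with methylparaben and 8765 and 8224 CPM with ethanol, was the most counted and did not pass (adjusted p = 0.525), while RPL39P3, with 2856 and 3750 CPM with methylparaben and 2263 and 2150 CPM with ethanol, was higher (0.58 ± 0.19, adjusted p = 0.0330). RPL12P4 had 1711 and 2442 CPM with methylparaben and 1161 and 755 CPM with ethanol (1.11 ± 0.24, adjusted p = 0.00639), beside the higher counts of RPL12 given above. The pseudogenes named were picked for their counts, their direction, their parent or the spread of their replicates after the values were seen.

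Introns of RP genes also hold small nucleolar RNA (snoRNA) genes, which guide changes of ribosomal RNA. Of 60 such genes in core RP genes, 4 were tested and 2 were higher, both in RPS12. That is 50% higher and 0% lower, against 18.5% and 18.4% of all genes, from few tested genes. SNORA33 had 241 and 80 counts with methylparaben and 39 and 46 with ethanol, at 1.57 ± 0.32 (adjusted p = 0.00463), and SNORD101 had 79 and 26 with methylparaben and 9 and 17 with ethanol, at 1.67 ± 0.48 (adjusted p = 0.0229). SNORD100, the other of RPS12, had 20 and 13 counts with methylparaben and 12 and 2 with ethanol, and SNORD14A, in RPS13, had 37 and 12 with methylparaben and 7 and 16 with ethanol. Neither passed. Counts on the intron bases of RPS12 and on 2 of its 3 tested snoRNA genes were thus higher, on bases that do not overlap.

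In the authors' deposited table of their own comparison, 30 core RP transcripts with reads had an adjusted p under 0.05, among them 26 of the 29 called here. That table uses the same 4 libraries and gives no independent support.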

How the data were processed

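Read counts per annotated transcript were deposited by the authors for 206601 transcripts, without normalization, and the FPKM and log2 columns that the authors deposited follow from them. The table's p-value and adjusted p-value columns are the authors' own, per the file headers. Per the submitters' processing notes, the build was GRCh38, and edgeR, limma and DESeq2 are named with neither version nor role. The sources used here do not name an aligner or a counter. All transcripts had the same coordinates in GENCODE release 29. None of the 70749 transcripts without a base of its own, on either strand, had a read. Strand use in counting is not stated, so overlapping and antisense genes are uncertain.

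Counts were summed per gene, since the table holds transcripts where gene counts had been planned for. Genes and transcripts were filtered with filterByExpr (minimum count 10, minimum total 15), scaled by TMM and compared with the two-sided quasi-likelihood F-test of edgeR 4.0.16 (R 4.3.3), with Benjamini-Hochberg adjustment over the whole table and a threshold of 0.05. Transcript usage was tested with diffSpliceDGE over genes with at least 2 tested transcripts. SEs of log2 fold changes were taken as the absolute value divided by the square root of F. Alternatives were RLE, upper-quartile and library-size scaling, DESeq2 1.42.0, voom of limma 3.58.1, no filter, a stricter filter of 5 CPM, log2 FPKM plus 1 or 0.1 in limma, protein-coding transcripts only, retained-intron transcripts left out, a replicate block, and each library left out. Positions are relative to the coding sequence of the main (principal) transcript, and a gene was called read mainly on a class above 50% of its reads. A fold against 0 counts is a bound from 3 counts over the group, and ratios with 1 to 3 counts have exact 95% binomial intervals.

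The members and lists were chosen with earlier results of these data known. Named were the called core genes (at most 12 a direction), core genes with 50 counts on each of 2 classes, the 5 with most reads per countable kilobase, the 3 of highest count, and up to 4 called members of each list by smallest p. The lists were RPs under other names, paralogues with L1, other TOP mRNAs, mTORC1 and TOP control, S6 kinases, RP chaperones and importers, RP modification, RP pseudogenes and snoRNA genes. Promoter sequences are from RefSeq (GRCh38.p14). Some genes of these lists are not reported here.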

Additional observations from a re-analysis of the deposited data

How the results depend on the processing

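The main counts of core RP genes were 12 higher and 5 lower. Lower genes numbered 3 without a filter and 1 with limma on log2 FPKM plus 1 or plus 0.1. DESeq2 called 8 higher and 4 lower genes, and 13 calls of named genes and transcripts were lost with it, those of RPL3, RPL6, RPL27, RPL27A and RPS12 among them. Higher genes numbered 5 on protein-coding transcripts only, with a median log2 fold change of -0.10 in place of 0.34, and 4 with retained-intron transcripts left out. Leaving out 1 library gave 7 to 13 higher and 2 to 6 lower genes, 10 to 18 higher and 4 to 9 lower transcripts, and 6 to 8 genes with changed usage, and a group left with 1 library was assumed to vary like the other. By library left out, 24 calls of named genes and transcripts were lost without ethanol replicate 1, 20 without ethanol replicate 2, 14 without methylparaben replicate 1 and 9 without methylparaben replicate 2. With library size only, the median of all tested genes moved by -0.11, and the log2 ratio of summed reads was -0.37 for protein-coding, 0.48 for retained-intron and 1.07 for NMD transcripts. Without the gene with most reads of the class it was 0.064 for protein-coding (RPL22), 0.66 for retained-intron (RPL36A) and 1.78 for NMD transcripts (RPL26). RPS27L, not called at -0.32, was at 0.48 and 0.61 with limma on log2 FPKM plus 1 and plus 0.1 and passed in neither. Replicate numbers shared by the groups did not pair the libraries (correlation -0.15 of the replicate differences over 8055 genes). With the number as a block, 11 genes were higher and 3 lower, 18 transcripts were higher and 8 lower, and 7 genes had changed usage. Crossed pairing, added after the data were seen, gave 14 higher and 7 lower genes. Depth limits the 24 core genes not tested, and the 4 libraries limit every p.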
